A study of Mus musculus with 8 samples.

Results

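Voltage-gated sodium channels are described here through 7 of their subunit genes in mouse brain. They are the pore-forming alpha subunits Scn1a, Scn2a, Scn3a and Scn8a and the auxiliary beta subunits Scn2b, Scn3b and Scn4b. The members were chosen by symbol, without use of their measured values, from a table of counts per RefSeq transcript that covered 21643 gene symbols, and each gene was read from its row of highest total count. The samples were polyribosome-associated RNA, that is, RNA that sediments with messages carrying several ribosomes, from hippocampus or cortex of C57Bl/6 mice aged 7 to 9 weeks. The tissue was taken 6 h or 1 h after contextual fear conditioning, in which a chamber is paired with foot shock, or after exposure to the context alone (control). There was 1 library for each of the 8 combinations of tissue, training and time: hippocampus conditioned 6 h, hippocampus control 6 h, hippocampus conditioned 1 h, hippocampus control 1 h, and the same 4 from cortex. All mice were of 1 strain and no allele or drug is named. The protocol describes prefrontal cortex, the study's design text names 8 mice and that tissue alone, and neither gives the number of mice per library or says if 1 mouse gave both tissues. The p-values below therefore measure only the spread between these libraries, part of which may be technical.

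Voltage-gated sodium channels open when a neuron depolarises and carry the inward current of the action potential. The alpha subunit forms the pore and the voltage sensor, while beta subunits are small membrane proteins with an immunoglobulin-like domain that adjust gating, surface delivery and adhesion. In the forebrain, Scn1a is known for its role in fast-spiking inhibitory neurons, Scn2a for excitatory neurons and their unmyelinated axons, Scn8a for axon initial segments and nodes of Ranvier, and Scn3a for strong expression before birth. Scn2b and Scn4b are joined to the alpha subunit by a disulfide bond, Scn3b is held without one, and Scn4b, which is known for its abundance in the striatum, has an intracellular tail linked to resurgent current.

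The alpha subunits Scn3a (NM_018732, chr2:65457118-65567591), Scn2a (NM_001099298, chr2:65620764-65767447) and Scn1a (NM_018733, chr2:66270781-66440837) lie near each other on chromosome 2, and Scn8a (NM_011323) lies at chr15:100869863-101045938. The beta subunits Scn2b (NM_001014761, chr9:45117876-45130070) and Scn4b (NM_001013390, chr9:45138624-45154155) are neighbours on chromosome 9, and Scn3b (NM_178227) lies at chr9:40269216-40291618 on the same chromosome. These coordinates and the sequences below are RefSeq's on GRCm38.p6 and cover the whole gene, whereas the counts were made on mm9. Scn8a and Scn3b each had a second row with nearly the same counts, 9911 beside 9961 for Scn8a and 3859 beside 3873 for Scn3b over all libraries, and it was not used. The genes also differed in their base composition, which bears on the comparison of times: GC content was 43.2% to 43.4% in the transcripts of Scn1a, Scn2a and Scn3a, against 50.3% in both Scn8a and Scn2b, 47.8% in Scn3b and 54.5% in Scn4b.

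The 250 bases before an annotated start are printed for 4 members, because of the 2 neighbours on chromosome 9 only Scn4b was called between tissues, and because the calls of Scn8a and Scn1a between times fared differently once base composition was allowed for. The RefSeq promoter table held windows for 5 of the 7 members; Scn3a and Scn3b had none. Capitals mark the CpG dinucleotides, and each sequence runs 5′ to 3′ on the strand of its gene, which is the plus strand for Scn4b (chr9:45138374-45138623), Scn2b (chr9:45117626-45117875) and Scn8a (chr15:100870395-100870644) and the minus strand for Scn1a (chr2:66440838-66441087). The windows of Scn4b, Scn2b and Scn1a abut the end of the gene given above, whereas that of Scn8a lies inside the gene's span, before another annotated start.
Scn4b: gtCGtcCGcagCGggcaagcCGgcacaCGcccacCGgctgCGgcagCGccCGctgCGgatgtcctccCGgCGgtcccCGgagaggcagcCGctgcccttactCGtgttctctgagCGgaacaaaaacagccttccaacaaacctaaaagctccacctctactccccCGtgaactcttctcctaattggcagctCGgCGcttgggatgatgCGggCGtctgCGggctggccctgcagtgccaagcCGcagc
Scn2b: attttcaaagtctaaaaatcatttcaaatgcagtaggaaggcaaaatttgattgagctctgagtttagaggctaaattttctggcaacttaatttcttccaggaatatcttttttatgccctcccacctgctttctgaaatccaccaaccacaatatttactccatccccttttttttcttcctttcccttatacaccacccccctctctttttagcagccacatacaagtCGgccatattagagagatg
Scn8a: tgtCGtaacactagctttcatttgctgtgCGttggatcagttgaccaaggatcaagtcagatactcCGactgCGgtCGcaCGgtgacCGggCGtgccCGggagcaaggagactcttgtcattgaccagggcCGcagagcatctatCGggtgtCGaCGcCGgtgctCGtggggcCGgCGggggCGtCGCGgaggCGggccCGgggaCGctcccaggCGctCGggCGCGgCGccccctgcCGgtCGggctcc
Scn1a: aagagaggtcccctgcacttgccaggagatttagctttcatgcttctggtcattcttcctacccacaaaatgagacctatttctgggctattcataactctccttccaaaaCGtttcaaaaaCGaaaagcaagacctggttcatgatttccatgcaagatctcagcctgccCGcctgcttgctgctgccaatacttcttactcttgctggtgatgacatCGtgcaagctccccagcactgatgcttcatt
The Scn4b window had a GC content of 66.0% and 23 CpG dinucleotides, and that of its neighbour Scn2b had 38.4% and 1. The Scn8a window printed had 68.0% and 30 CpG dinucleotides, and that of Scn1a had 46.8% and 4. A second Scn8a window (chr15:100936021-100936270), not printed, had 53.2% and 9, so the contrast with Scn1a depends on the start chosen. The median over all 32851 windows of that length in the table was 52.4% and 6 CpG dinucleotides. Of 4 motifs searched on both strands, an Egr motif (GCGNGGGCG) matched once in the Scn8a window printed, 75 bases before the start, and occurred in 4.70% of all windows. TATAAA matched once, in a second Scn2a window, and occurred in 12.4% of all windows. An AP-1 motif (TGANTCA, 6.75% of all windows) and a short CRE motif (TGACG, 17.8%) matched in none of the members' 7 windows.

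The libraries held 2370973 to 5296986 counts, lowest in hippocampus control 6 h. In that library the kinesin gene Kif5c took 8.01% of all counts, whereas in the others the most abundant gene, Snap25, took 0.684% to 2.46%. CPM, each library's counts relative to its total, below are scaled with TMM factors, which were 0.732 for hippocampus control 6 h and 0.973 to 1.15 for the others. The 2 libraries labelled conditioned 1 h, 1 from each tissue, differed by no more than sampling noise: the variance of their difference was 1.06 times that of counting alone over 11599 genes, against at least 4.76 for any other pairing of libraries. Over 8 markers of hippocampal excitatory neurons they had 436 and 444 CPM, between the 582 CPM of hippocampus control 1 h and the 229.7 CPM of cortex control 1 h. Striatal, cortical and oligodendrocyte markers also lay between those controls, while astrocyte markers (267 and 257 CPM, against 248 in hippocampus and 205 in cortex) and microglial markers (38.5 and 38.0 CPM, against 30.4 in hippocampus and 32.8 in cortex) were above both. They are therefore counted as 1 sample with no tissue of its own, left out of the tissue comparison, and called the conditioned 1 h pair. Ratios of the hippocampus-labelled to the cortex-labelled library of this pair ran from 1.01 for Scn2a to 1.12 for Scn4b, and the 95% counting interval included 1 for each of the 7 members.

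Per length of transcript, the level of the 7 subunits differed widely. Scn2b averaged 41.2 ± 14.6 CPM per kilobase, Scn2a 33.2 ± 9.63, Scn8a 29.8 ± 14.8, Scn3b 29.0 ± 12.2, Scn1a 15.3 ± 5.55, Scn3a 6.45 ± 3.15 and Scn4b 2.68 ± 1.98 CPM per kilobase (SD, n = 7 with the pair once). The ranges of mean ± SD overlapped among the first 4 of this order, and differences between genes were not tested. Among the alpha subunits the order within a library was steadier than the levels. Scn2a made up 33.9% to 44.0% of the alpha level per length, Scn8a 28.5% to 43.0%, Scn1a 13.7% to 22.1% and Scn3a 6.61% to 9.44%. Scn2a exceeded Scn8a in each library other than hippocampus control 6 h, where the ratio of Scn8a to Scn2a per length was 1.27, against 0.649 to 0.868 in the remaining libraries.

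The beta subunits were mixed in far less constant shares. Scn2b, which is covalently bound to the alpha subunit, made up 31.4% to 71.4% of the beta level per length and was the largest part in each library except hippocampus control 6 h, where Scn3b made up 68.0%. Scn3b made up 21.4% to 49.4% elsewhere. Scn4b made up 0.661% to 0.851% in the 3 hippocampus libraries outside the pair, against 7.00% to 8.35% in the 3 cortex libraries, and 4.11% and 3.87% in the conditioned 1 h pair. The 2 tissues did not overlap in this share, and the pair lay between them.

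**Figure D1:**
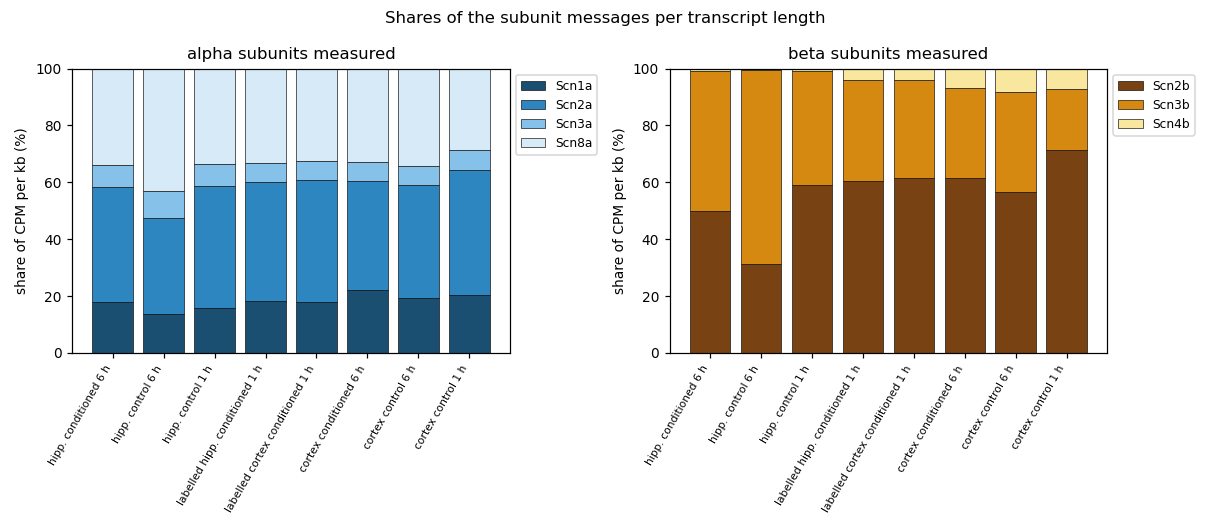
Share (%) of each alpha subunit in the summed alpha level and of each beta subunit in the summed beta level, in CPM per kilobase of transcript, 1 bar for each of the 8 libraries. Scn2a and Scn8a form most of the alpha level throughout, whereas the Scn4b share is 0.661% to 0.851% in hippocampus and 7.00% to 8.35% in cortex outside the conditioned 1 h pair.

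Whether the tissues differ was asked of the 6 libraries outside the pair, with training and time as covariates. Of the 7 members, 2 passed edgeR's quasi-likelihood test at an adjusted p of 0.05: Scn3b was higher and Scn4b lower in hippocampus. Of all 16123 rows tested, 3.72% passed, with 278 rows (1.72%) higher in hippocampus and 322 lower. The members' median log2 difference was -0.07, beside 0.0011 over all rows. How many of all genes do not overlap between tissues was not counted, so statements on overlap below are description only. In tissue RNA of this kind, fewer cells of a type and less RNA per cell cannot be told apart.

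Scn4b, the beta subunit linked to resurgent current, stood at 3.73 CPM (conditioned 6 h), 1.73 CPM (control 6 h) and 4.22 CPM (control 1 h) in hippocampus, against 20.8, 21.4 and 25.4 CPM in the matching cortex libraries. The highest hippocampus library was far below the lowest cortex library, and the conditioned 1 h pair lay between them at 17.1 and 15.2 CPM. The hippocampus values rest on 16, 3 and 19 counts, against 107, 111 and 97 in cortex. The mean was 3.23 ± 1.32 CPM in hippocampus and 22.5 ± 2.52 CPM in cortex (SD, n = 3 each). In edgeR the log2 difference was -2.77 ± 0.44 (SE, adjusted p = 0.000438). As single ratios of libraries, hippocampus over cortex was 0.179 (conditioned 6 h, 95% counting interval 0.0989 to 0.305), 0.0810 (control 6 h, 0.0165 to 0.243) and 0.166 (control 1 h, 0.0958 to 0.273). Scn4b passed with each of the 6 libraries left out in turn, with adjusted p of at most 0.0145.

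Scn3b, the beta subunit that binds without a disulfide bond, had 194 CPM (conditioned 6 h), 148 CPM (control 6 h) and 166 CPM (control 1 h) in hippocampus, against 78.0, 74.9 and 62.7 CPM in the matching cortex libraries. Every hippocampus value outside the pair was above every cortex value, and the pair again fell between, at 122 and 114 CPM. Scn3b averaged 169 ± 23.2 CPM in hippocampus and 71.9 ± 8.10 CPM in cortex (SD, n = 3 each). The log2 difference in edgeR was 1.23 ± 0.32 (SE, adjusted p = 0.0286). Within matched conditions hippocampus over cortex was 2.49 (conditioned 6 h, 95% counting interval 2.21 to 2.81), 1.98 (control 6 h, 1.69 to 2.32) and 2.64 (control 1 h, 2.28 to 3.07). The call was lost without any of the following libraries, although the log2 difference then stayed between 1.15 and 1.19. Adjusted p in edgeR was 0.186 without hippocampus conditioned 6 h, 0.431 without hippocampus control 1 h, 0.135 without cortex conditioned 6 h and 0.426 without cortex control 1 h. With all 8 libraries taken as labelled, adjusted p was 0.248 for both Scn3b (log2 difference 0.95) and Scn4b (-1.83).

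The remaining beta subunit and the 4 alpha subunits overlapped between tissues. Scn1a, the alpha subunit known from fast-spiking cells, ranged from 60.2 to 150.0 CPM in hippocampus and from 93.1 to 191 CPM in cortex, with a log2 difference of -0.39 ± 0.32 (SE, edgeR, adjusted p = 0.679). Scn2a, Scn3a, Scn8a and Scn2b had log2 differences of -0.07, 0.26, 0.20 and -0.07, with adjusted p between 0.825 and 0.961. Scn2b thus gave no call in the contrast in which its neighbour Scn4b was called, and the difference between these genes was not tested.

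Markers of cell types differed between the same libraries. The summed level of 10 markers of striatal projection neurons was 134 to 149.5 CPM in hippocampus and 279 to 542 CPM in cortex, and 7 of the 10 were lower in hippocampus by the same test. Their defining gene Drd1 stood at 0.577 to 1.87 CPM in hippocampus and 7.39 to 11.8 CPM in cortex, Drd2 at 0.577 to 2.22 CPM in hippocampus and 1.75 to 8.67 CPM in cortex, and Adora2a was at 0 in 2 hippocampus libraries, control 6 h and control 1 h. Most of the sum came from Pde10a, which did not pass (log2 difference -0.66, edgeR, adjusted p = 0.372), and Ppp1r1b, which did (-2.86, 0.00136). The 8 markers of cortical excitatory neurons summed to 239 to 565 CPM in hippocampus and 1168 to 1658 CPM in cortex, and the 8 hippocampal ones to 582 to 1029 CPM in hippocampus and 163 to 229.7 CPM in cortex. Of these lists 6 and 7 members passed, in the direction of the labelled tissue. Oligodendrocyte markers summed to 1142 to 1373 CPM in hippocampus and 699.7 to 856 CPM in cortex, with 1 of 7 higher, and interneuron markers to 615 to 807 CPM in hippocampus and 543 to 805 CPM in cortex, with 0 of 7 passing. Thalamic (54.4 to 62.5 CPM in hippocampus and 32.1 to 41.4 CPM in cortex) and astrocyte markers (248 to 324 CPM in hippocampus and 163 to 205 CPM in cortex) also did not overlap, with 1 of 6 and 1 of 5 higher in hippocampus. Microglial markers summed to 30.4 to 42.1 CPM in hippocampus and 26.5 to 32.8 CPM in cortex, with 0 of 4 tested passing. The part of these cell types in the differences of Scn4b and Scn3b was not tested.

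**Figure D2:**
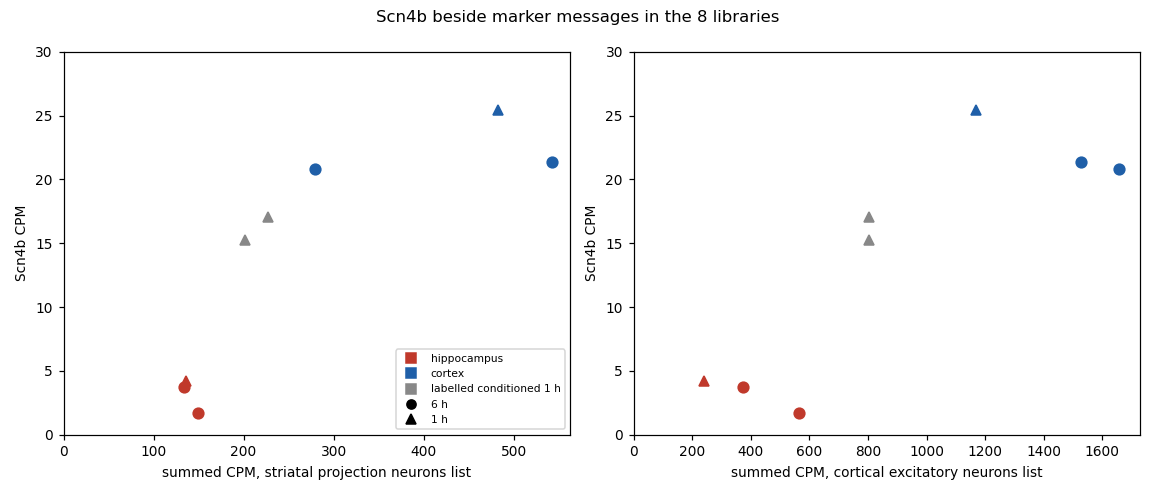
Scn4b (CPM) against the summed level (CPM) of striatal projection neuron markers (left) and cortical excitatory neuron markers (right), 1 point for each of the 8 libraries. The hippocampus libraries outside the conditioned 1 h pair sit at 1.73 to 4.22 CPM of Scn4b, with striatal sums of 134 to 149.5 CPM. The cortex libraries sit at 20.8 to 25.4 CPM, with striatal sums of 279 to 542 CPM. The cortical sums outside the pair are 239 to 565 CPM in hippocampus and 1168 to 1658 CPM in cortex.

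**Figure D3:**
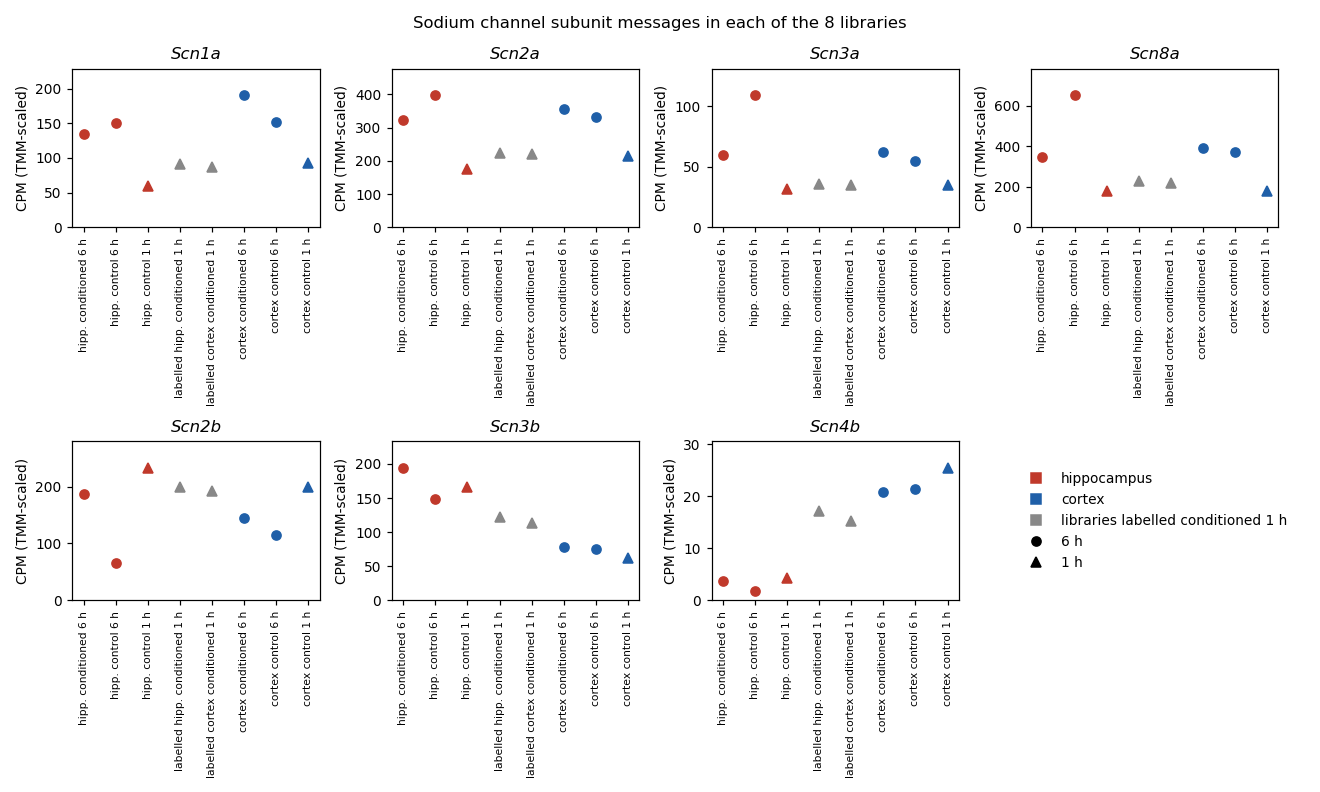
Level of each member (TMM-scaled CPM) in each of the 8 libraries, by tissue, training and time. The 4 alpha subunits are higher in the 6 h libraries than in the 1 h libraries, a call that Scn8a alone keeps once GC content and length are allowed for, Scn2b is lower, and Scn3b and Scn4b separate by tissue outside the conditioned 1 h pair.

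The time after the session was compared over 7 libraries, 4 taken at 6 h and 3 at 1 h, with tissue and training as covariates. All 4 alpha subunits were higher at 6 h by edgeR's quasi-likelihood test, and none of the 3 beta subunits passed it. When the trend of the difference with GC content and transcript length was removed, Scn8a alone among the 4 still passed, and the log2 differences were -0.0849 for Scn1a, -0.235 for Scn2a and 0.0085 for Scn3a. Of all 16378 rows tested, 37.7% passed, 20.5% as higher at 6 h and 17.2% as lower, so a call in this comparison is common. The members' median log2 difference was 0.77, beside -0.03 over all rows. How many of all genes do not overlap between times was not counted either.

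Scn8a, the alpha subunit of initial segments and nodes, had 348 CPM (hippocampus conditioned), 652 CPM (hippocampus control), 391 CPM (cortex conditioned) and 371 CPM (cortex control) at 6 h, against 224 CPM in the conditioned pair, 177 CPM in hippocampus control and 181 CPM in cortex control at 1 h. The lowest 6 h library was well above the highest 1 h library, and hippocampus control 6 h stood far above the other three. Scn8a averaged 440.4 ± 142 CPM at 6 h and 194 ± 25.9 CPM at 1 h (SD, n = 4 and n = 3), with a log2 difference in edgeR of 1.15 ± 0.28 (SE, adjusted p = 0.0136).

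Scn2a, the principal alpha subunit of excitatory neurons, had 322, 398, 356 and 331 CPM in the same order at 6 h, against 222, 175 and 216 CPM at 1 h. Its 6 h libraries again lay wholly above its 1 h libraries and were closer together than those of Scn8a. The log2 difference in edgeR was 0.77 ± 0.23 (SE, adjusted p = 0.0292), from means of 352 ± 34.2 CPM at 6 h and 204 ± 25.7 CPM at 1 h (SD, n = 4 and n = 3).

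Scn1a had 134, 150.0, 191 and 151 CPM at 6 h, against 89.6, 60.2 and 93.1 CPM at 1 h. Here the highest library was cortex conditioned 6 h, and the lowest was hippocampus control 1 h, with no overlap between times. Scn1a averaged 157 ± 24.0 CPM at 6 h and 81.0 ± 18.1 CPM at 1 h (SD, n = 4 and n = 3), and its log2 difference in edgeR was 0.92 ± 0.24 (SE, adjusted p = 0.0158).

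Scn3a, the alpha subunit known for its expression before birth and the least abundant of the 4 per length, had 59.7, 109, 61.8 and 54.3 CPM at 6 h, against 35.3, 31.3 and 34.6 CPM at 1 h. The 1 h libraries lay close together and below each 6 h library, and hippocampus control 6 h stood apart from the other 6 h libraries. Its means were 71.2 ± 25.4 CPM at 6 h and 33.7 ± 2.13 CPM at 1 h (SD, n = 4 and n = 3), with a log2 difference in edgeR of 1.04 ± 0.28 (SE, adjusted p = 0.0199).

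Scn2b had 187, 65.2, 145 and 115 CPM at 6 h, against 196, 233 and 199 CPM at 1 h. Each 6 h library was below each 1 h library, by a small margin for hippocampus conditioned 6 h. The log2 difference of -0.87 ± 0.32 (SE) just missed the threshold in edgeR (adjusted p = 0.0505), and it passed with DESeq2 (adjusted p = 0.0213) and limma-voom (adjusted p = 0.0404). Without hippocampus control 6 h the log2 difference was -0.50 (adjusted p = 0.0469), without hippocampus conditioned 6 h it was -1.09 (0.0189), and without the conditioned 1 h pair it was -1.28 (0.0294). It did not pass without hippocampus control 1 h (-0.66, 0.188), cortex conditioned 6 h (-0.86, 0.112), cortex control 6 h (-0.997, 0.0784) or cortex control 1 h (-0.83, 0.187).

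Scn3b and Scn4b, the subunits that separated the tissues, overlapped between times. Scn3b averaged 124 ± 57.9 CPM at 6 h and 115 ± 51.5 CPM at 1 h, with a log2 difference of 0.04 ± 0.22 (SE, edgeR, adjusted p = 0.894). For Scn4b the log2 difference was -0.69 ± 0.31 (SE, edgeR, adjusted p = 0.0937), and it depended on the tissue given to the conditioned 1 h pair. It was -1.24 (adjusted p = 0.0433) with the pair placed by its hippocampus label and -0.0548 (0.916) by its cortex label.

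The summed alpha level per length was 107 ± 19.6 CPM per kilobase at 6 h and 54.7 ± 7.00 at 1 h, while the summed beta level was 64.6 ± 20.4 at 6 h and 83.8 ± 14.7 at 1 h (SD, n = 4 and n = 3). The ratio of the sums was 0.967 (hippocampus conditioned), 2.57 (hippocampus control), 1.78 (cortex conditioned) and 1.87 (cortex control) at 6 h, against 0.748, 0.472 and 0.800 at 1 h. No library of one time reached into the range of the other, though hippocampus conditioned 6 h came close. Within the controls, 6 h over 1 h was 2.28 to 3.68 for the alpha subunits and 0.280 for Scn2b in hippocampus, and 1.53 to 2.05 for the alpha subunits and 0.577 for Scn2b in cortex. Each of these ratios had a 95% counting interval that excluded 1, while the interval included 1 for Scn4b in both tissues and Scn3b in hippocampus. Such differences were common: 75.2% of 11135 genes in hippocampus and 64.3% of 11676 in cortex lay beyond the 95% limit of counting error. The 5th and 95th percentiles of the log2 ratio over these genes were -3.015 and 2.148 in hippocampus and -1.355 and 1.625 in cortex. All members lay within them.

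The times also differed in base composition across the whole table. Over 13890 rows the difference of 6 h minus 1 h had a Spearman correlation of -0.772 with GC content and 0.347 with transcript length, and the 2 properties together accounted for 61.5% of its variance. This is a description across genes, which are not independent replicates and share the same libraries. With this trend removed by offsets, Scn8a still passed, with a log2 difference of 0.89 (edgeR, adjusted p = 0.0279). Under the same offsets adjusted p was 0.785 for Scn1a, 0.400 for Scn2a and 0.983 for Scn3a, so those 3 calls ended. Scn2b was at -0.94 (0.0535), and it has the same GC content as Scn8a, 50.3%, in a transcript of 3958 bases beside 11232 bases for Scn8a. The tissue calls kept their size under these offsets: 1.16 (adjusted p = 0.00453) for Scn3b and -2.63 (4.96e-05) for Scn4b.

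Single libraries also decided the calls between times. None of the members passed without hippocampus control 1 h, without cortex conditioned 6 h or without cortex control 1 h. The log2 differences of the alpha subunits were then still 0.63 to 1.15, with adjusted p from 0.0504 to 0.126. Without cortex control 6 h Scn2a was lost (log2 difference 0.84, adjusted p = 0.0672). With the conditioned 1 h pair left out, Scn8a (1.46, adjusted p = 0.0160) and Scn3a (1.23, 0.0386) passed, and Scn1a (0.99, 0.0665) and Scn2a (0.88, 0.0955) did not. Markers of cell types moved with time as well. Pan-neuronal markers summed to 16970 to 28930 CPM at 6 h and 7251 to 9946 CPM at 1 h, most of it Snap25, with 3 of the 5 higher and 1 lower by the same test. Interneuron markers summed to 697 to 807 CPM at 6 h and 543 to 615 CPM at 1 h, without overlap, with Gad2 higher (log2 difference 1.34, edgeR, adjusted p = 0.00640) and Slc32a1 lower (-1.26, 0.0118) among 7. Oligodendrocyte (699.7 to 1291 CPM at 6 h and 856 to 1373 CPM at 1 h), astrocyte (163 to 324 CPM at 6 h and 205 to 262 CPM at 1 h) and microglial sums (26.5 to 42.1 CPM at 6 h and 30.4 to 38.2 CPM at 1 h) overlapped, with 1 higher and 2 lower of 7, 1 and 2 of 5, and 0 and 1 of 4. The part of these markers in the differences of the alpha subunits between times was not tested.

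**Figure D4:**
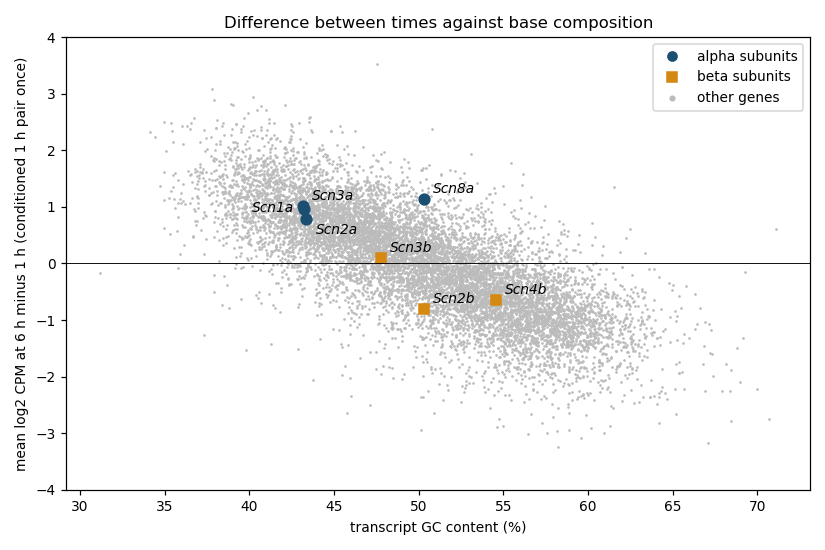
Mean log2 CPM at 6 h minus that at 1 h (4 and 3 libraries, the conditioned 1 h pair once) against the GC content (%) of the transcript, 1 point per gene, with the members marked. The cloud falls with GC content (Spearman -0.772 over 13890 rows), Scn1a, Scn2a and Scn3a sit at 43.2% to 43.4%, and Scn8a and Scn2b sit at 50.3% on opposite sides.

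The effect of training was asked of the same 7 libraries, 3 conditioned and 4 control. No member passed, and 0% of 16378 rows passed over the whole table. edgeR gave 296 rows with an unadjusted p under 0.05, against 267 with DESeq2 and 327 with limma-voom, which also called 0 rows. The members' log2 differences of conditioned minus control ran from -0.18 (Scn3a) to 0.48 ± 0.32 (SE, Scn2b), with adjusted p of 0.943 to 0.993 in edgeR, and their median was 0.15 beside 0.0035 over all rows. Conditioned and control libraries overlapped for each member: Scn2a, for example, averaged 299.8 ± 69.4 CPM in conditioned and 279.8 ± 103 CPM in control libraries, and Scn8a 321 ± 86.6 CPM in conditioned and 345 ± 224 CPM in control libraries (SD, n = 3 and n = 4). Missing the threshold does not show that training left these messages alike.

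**Figure D5:**
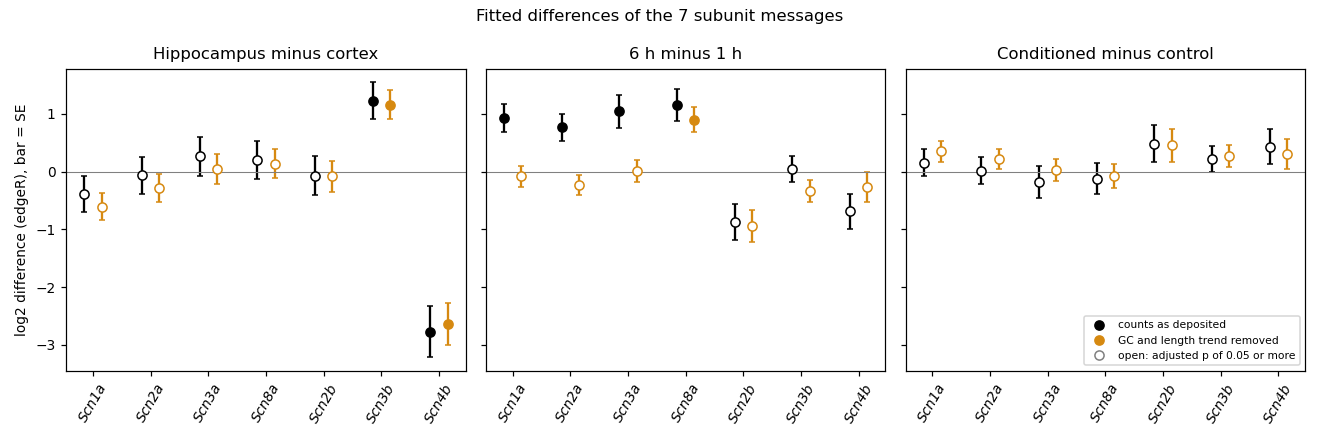
Log2 differences of the 7 members with standard errors, for hippocampus minus cortex, 6 h minus 1 h and conditioned minus control, fitted over all rows on the counts as deposited (black) and with the trend in GC content and length removed (orange); filled points pass. Scn3b (1.23) and Scn4b (-2.77) pass between tissues, the 4 alpha subunits (0.77 to 1.15) pass between times but without the trend only Scn8a does, and no member passes for training.

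At single combinations there was 1 library on each side, so the ratios below carry counting error only and no test. In hippocampus at 6 h, conditioned over control was 2.86 (95% counting interval 2.35 to 3.52) for Scn2b and 1.31 (1.14 to 1.51) for Scn3b. The alpha subunits were below 1 in the same pair of libraries: Scn8a at 0.534 (0.494 to 0.577), Scn3a at 0.547 (0.452 to 0.664), Scn2a at 0.808 (0.737 to 0.887) and Scn1a at 0.895 (0.772 to 1.04). The hippocampus control 6 h library, which stands apart in Kif5c and depth, is the denominator of these ratios. The 5th and 95th percentiles of the log2 ratio over 10647 genes were -1.44 and 2.09 there, and the log2 ratios of the 7 members, from -0.91 (Scn8a) to 1.52 (Scn2b), lay within them.

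In cortex at 6 h the conditioned and control libraries were closer. Conditioned over control was 1.26 (95% counting interval 1.15 to 1.39) for Scn1a, 1.26 (1.13 to 1.41) for Scn2b and 1.08 (1.01 to 1.15) for Scn2a, and the interval included 1 for Scn3a, Scn8a, Scn3b and Scn4b. The 5th and 95th percentiles over 11833 genes were -0.61 and 0.59 on the log2 scale, and the members lay within them here as well.

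At 1 h the conditioned pair can be set against either tissue's control. Scn8a was higher in the pair than in both, with a ratio of 1.26 (95% counting interval 1.16 to 1.37) over hippocampus control and 1.24 (1.13 to 1.35) over cortex control. Scn3b was at 0.711 (0.646 to 0.782) over hippocampus control and 1.88 (1.63 to 2.17) over cortex control, and Scn4b at 3.82 (2.36 to 6.54) over hippocampus control and 0.634 (0.485 to 0.830) over cortex control. For the 2 subunits that separate the tissues, the direction of the training ratio at 1 h thus turned on which tissue was taken as the control. Over hippocampus control the 5th and 95th percentiles of the log2 ratio were -0.84 and 0.81 (12336 genes). Over cortex control they were -0.53 and 0.75 (12181 genes). Scn8a, at 0.33 and 0.31 on that scale, lay within both ranges. Scn4b lay outside both, at 1.93 and -0.66, and Scn3b, at -0.49 and 0.91, outside the cortex range only.

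Other sodium channel alpha subunits with values here were scarce. Scn4a, the skeletal muscle alpha subunit, was listed at 0 counts in all 8 libraries, and the 8 libraries together held 7 counts of Scn10a and 2 of Scn11a, which are known from sensory neurons. Scn9a was not analysed here. The sodium sensor Scn7a, with 198 counts over all libraries, did not pass between tissues (log2 difference -1.23, edgeR, adjusted p = 0.192) or between times (0.68, adjusted p = 0.153).

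Proteins that bind or place the channels were read from 3 lists. Of the intracellular FGFs, which bind the tail of the alpha subunit, 2 of 3 tested were higher at 6 h by edgeR: Fgf12 by 1.39 (adjusted p = 0.00959) and Fgf14 by 0.97 (0.0129) on the log2 scale, while Fgf13 was at 0.43 (0.186). Their median was 0.97, and Fgf11 was too low to be tested. Of 14 proteins of the axon initial segment and node, 3 were higher and 5 lower at 6 h, with a median of 0.15. By smallest p they were Trim46, a microtubule organiser of the initial segment (-1.40, adjusted p = 0.0138), Ank2, an ankyrin of the axon (1.14, 0.0180), and Sptbn1, a beta spectrin (0.80, 0.0212). Of 11 regulators of sodium channels, 5 were higher and 2 lower at 6 h, with a median of 0.675. Pura, a nucleic acid binding protein (1.15, adjusted p = 0.00847 in edgeR), had the smallest p. With the offsets for GC content and length, 1 FGF and 1 regulator were higher, and 0 and 3 initial segment proteins were higher and lower. Under these offsets 10.9% of all 15994 rows tested passed, whereas the counts without them stand beside 37.7%.

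Between tissues 0 of 3 FGFs, 0 of 14 initial segment proteins and 1 of 11 regulators passed, which is near the 3.72% of all rows and is no result about the lists. Camk2d, a calmodulin-dependent kinase that acts on sodium channels in heart muscle, stood at 38.0, 54.8 and 25.5 CPM in hippocampus (conditioned 6 h, control 6 h and control 1 h), against 124, 128 and 107 CPM in the matching cortex libraries. The tissues did not overlap, and the log2 difference in edgeR was -1.67 ± 0.33 (SE, adjusted p = 0.00331). Fgf13, which binds alpha subunits, was at 1.11 (edgeR, adjusted p = 0.0595). For training 0 genes on the lists passed.

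Across the 7 libraries the alpha subunits followed each other. The Pearson correlation of log2 CPM among the 4 was 0.790 to 0.984, highest between Scn8a and Scn3a. Scn2b ran against them at -0.663 to -0.905, and Scn4b ran against Scn3b at -0.911. These are descriptions over 7 points that share tissue, time, depth and base composition. Among 6254 genes of sufficient level, the profile of Scn1a was most like those of Robo2 (0.987) and Ppm1k (0.985), that of Scn2a like Eprs (0.991) and Ptprd (0.991), that of Scn3a like Iws1 (0.998), and that of Scn8a like Shprh (0.998). The profile of Scn2b was most like those of Nabp2 (0.998) and Atp5g1 (0.992), that of Scn3b like Lxn (0.996) and Gria1 (0.987), and that of Scn4b like Vopp1 (0.990) and Cpne5 (0.990).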

How the data were processed

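Polyribosome-associated RNA was sequenced in 8 libraries, 1 per combination of tissue, training and time. Per the labels' protocols, ribosomal RNA was depleted and cDNA synthesis used both random and poly A priming, followed by isothermal (SPIA) and then PCR amplification. The authors deposited 1 table of raw counts per RefSeq transcript. The submitters' processing notes name the build mm9 and, with no role given, TopHat 1.3.1, CASAVA 1.7, limma 3.12.3 and edgeR 2.612. How reads were counted, by strand and between related channel genes, is not recorded in the labels. Amplified reads with no molecular identifiers are not independent, and intervals cover counting error only. No total RNA was analysed here, so a difference in level is not by itself a difference in translation.

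The table held 28157 rows, 97.9% matched to a symbol by RefSeq identifier. Counts were tested with edgeR 4.0.16 in R 4.3.3 (quasi-likelihood test, robust, TMM factors, default low-count filter, Benjamini-Hochberg adjustment over all rows at 0.05), in an additive fit of tissue, training and time. The tissue fit had 6 libraries and 2 residual degrees of freedom. The time and training fits had 7 libraries, with the conditioned 1 h pair summed and its tissue set midway, and 3 residual degrees of freedom. Alternatives were DESeq2 1.42.0, limma-voom 3.58.1, other scaling factors, no filter, summed rows, other uses of the pair, each library left out, and offsets from splines with 5 degrees of freedom in GC content and length. The tissue and time fits were also run on simulated counts with known changes. That simulation had a fixed dispersion and no trend with GC content or length, so it cannot show how the fits behave under the trend seen here. Earlier results of these data were known when the members, lists and tests were chosen, although members were taken by symbol, not by value. Named genes were the members, the 2 genes of most similar profile for each, every list gene that passed for tissue or training, and the 3 of smallest p in each list for time; some genes that this rule names are not reported here.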

Additional observations from a re-analysis of the deposited data

Results flagged for a closer look

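At 6 h the ratio of conditioned over control was on opposite sides of 1 in the 2 tissues for 5 members. No share over all genes is given beside this count, so it is description only. The counting interval included 1 in both tissues for Scn4b, in hippocampus for Scn1a, and in cortex for Scn3a and Scn8a. Of the 5, only Scn2a had an interval that excluded 1 in both tissues. The log2 ratio of conditioned over control in hippocampus, minus that in cortex, was -0.49 for Scn1a, -0.41 for Scn2a, -1.06 for Scn3a, -0.98 for Scn8a and 1.15 for Scn4b. For 6 h over 1 h in the controls the same difference was -0.42 for Scn3b, whose ratio was below 1 in hippocampus and above 1 in cortex. The counting interval of that hippocampus ratio included 1 (0.774 to 1.033), and that of the cortex ratio did not (1.015 to 1.41). With 1 library on each side these differences were not tested, and hippocampus control 6 h enters each of them. Among the 4 libraries of 6 h, the highest stood far from the others for Scn3a, at 109 CPM, and for Scn8a, at 652 CPM. Both were hippocampus control 6 h. The rule would flag about 1 in 20 groups if their 4 values came from 1 normal population, and 14 groups of 4 libraries were examined. These groups mix tissues and either training or time, and all members share the same libraries, so that rate need not hold here.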

How the results depend on the processing

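Of the members called between tissues (2), the count was 1 to 2 with a library left out and 0 with all 8 libraries as labelled. Of the members called between times (4), the count was 0 to 5 with a library left out, 1 with GC and length offsets, 0 with the conditioned 1 h pair and hippocampus control 6 h left out, 2 with offsets and without the pair, and 2 with offsets and without hippocampus control 6 h, these last 2 alternatives chosen after seeing the data. With the pair placed by its hippocampus label the count was 6, Scn2b (-0.90, adjusted p = 0.0418) and Scn4b (-1.24, 0.0433) being added as lower. With RLE or upper-quartile factors, no filter, DESeq2 or limma-voom it was 5, Scn2b being added, and upper-quartile factors placed the median of all rows at -0.15, against -0.03 with TMM factors. For training the count was 0 in each alternative run. Over all rows the calls were 600 between tissues (0 with all 8 libraries as labelled, otherwise 200 to 1025) and 6167 between times (0 without cortex control 1 h, otherwise 863 to 7327).

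Between tissues, log2 differences with a library left out ran from -0.26 to 0.0612 for Scn2a, -0.13 to 0.47 for Scn3a, -0.13 to 0.39 for Scn8a and -0.30 to 0.28 for Scn2b, which was at 0.0284 with all 8 libraries. Between times, GC and length offsets gave -0.0849 for Scn1a, -0.235 for Scn2a and -0.33 for Scn3b. Without the pair the offsets gave -0.16, -0.26 and -0.39 for the same 3, and without hippocampus control 6 h -0.0472, -0.20 and -0.19, with -0.11 for Scn3a. Scn3b between times was at -0.0801 with upper-quartile factors, -0.17 with the pair placed by its cortex label, and -0.0405 to 0.12 with a library left out. For training, Scn2a was at -0.0246 with RLE factors and -0.0245 with DESeq2, -0.11 without the pair, -0.0144 with the pair placed in cortex, and -0.0655 to 0.17 with a library left out. Scn3a was at 0.0302 with offsets, 0.19 without the pair and hippocampus control 6 h, and -0.35 to 0.15 with a library left out. Scn8a was at 0.0196 without the pair and hippocampus control 6 h and at -0.24 to 0.19 with a library left out, and Scn4b at -0.21 with the pair in cortex and -0.0401 without the pair and hippocampus control 6 h. Except where a construction shows it, the cause was not tested. The tissue fit, additive over training and time, already sets the tissues against each other within 3 matched conditions. No paired analysis was possible by mouse because the labels tie no library to a mouse. Scn4b in hippocampus rests on 3 to 19 counts per library, which limits its ratio.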
